A study of Mus musculus with 12 samples.

Results

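Complement genes were followed in the transcriptome of mouse skeletal muscle. The 8 genes, C1qa, C1qb, C1qc, C1ra, C4b, C3, C7 and Serping1, were taken by symbol from the 26570 genes counted in either of the deposited tables, after earlier results of the same data had shown C7 to be lower on a high-fat diet. All 8 were counted in HFD and Chow muscle and 7 of them also in PCN and Vehicle muscle, where C3 was not analysed here. Muscle came from C57BL/6N mice in 4 groups of 3 libraries. All mice were 6 weeks old when the feeding started and were fed for 18 weeks. The PCN group ate a high-fat diet and had intraperitoneal injections of 50 mg/kg PCN, pregnenolone carbonitrile, daily for 4 days. PCN is a synthetic steroid that activates the rodent pregnane X receptor. The Vehicle group ate the same diet and had daily injections of corn oil with 30% DMSO for 4 days. The HFD group ate the high-fat diet and the Chow group regular chow, both without injection. The labels name neither the muscle nor whether each library came from its own mouse, so p-values measure the spread between these samples. Libraries are called by group and by the number in their labels, such as HFD 38.

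Complement is a cascade of plasma and tissue proteins that marks and lyses targets. In the classical pathway C1q, built from the chains of C1qa, C1qb and C1qc, binds a target and activates the proteases C1r and C1s, which cleave C4 and C2. The resulting enzyme cleaves C3, the point at which the classical, lectin and alternative pathways meet, and C7 joins the terminal complex that inserts into membranes. Serping1 encodes the C1 inhibitor, which blocks C1r and C1s. Liver makes most circulating complement, while tissue macrophages are a main source of C1q.

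C7 was the 1 member whose HFD and Chow libraries lay apart, at 4.56 ± 1.06 CPM (counts scaled to a common library size) in HFD muscle and 11.0 ± 2.15 CPM in Chow muscle (SD, n = 3 each). This gap put C7 on the list. Of all genes tested, 7.08% were lower and 5.75% higher in HFD without overlap. The C1q chains varied together from library to library and were highest in HFD 38, the library that also led most macrophage, fibroblast and adipocyte markers. C4b had its highest value in PCN 5. With edgeR's expression filter and quasi-likelihood test, and no library left out, no member was called in any of the 6 comparisons between groups. Calls used Benjamini-Hochberg adjustment over all genes at a threshold of 0.05.

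Library totals were 14379421 to 19739226 counts in PCN, 16790642 to 17628784 in Vehicle, 14266093 to 17096576 in HFD and 12770308 to 18920359 in Chow. A member had between 33 counts (C1ra in HFD 30) and 1592 counts (C3 in HFD 38) in a library. The 8 markers of skeletal muscle fibres summed to 84826 to 158483 CPM in every library. The 5 hepatocyte markers, analysed in HFD and Chow, summed to 0 to 4.19 CPM in HFD and 0.113 to 0.640 CPM in Chow, where Ttr, Serpina1a and Fgb were at 0. The neutrophil and lymphocyte lists summed to at most 2.98 and 0.725 CPM. HFD 38 was the highest library for 10 of 14 macrophage markers, 7 of 12 fibroblast markers and 7 of 8 adipocyte markers. Slow-fibre markers were analysed in HFD and Chow only. There Chow 17 and Chow 19 stood apart, with 513 and 572 CPM over 5 markers, against 11.4 CPM in Chow 8 and 4.19 to 8.78 CPM in HFD. PCN 5 was the highest library for 3 of the 7 members counted in all 12 libraries.

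The members lie on chromosomes 2, 4, 6, 15 and 17 of GRCm38, in coordinates of the deposited tables. The C1q chains form a cluster on the minus strand of chromosome 4, with C1qb at 136880129 to 136886187, C1qc at 136889804 to 136893065 and C1qa at 136895917 to 136898803. C7 spans 4988762 to 5063740 on the minus strand of chromosome 15. C4b (34728380 to 34743882) and C3 (57203970 to 57228136) are both on the minus strand of chromosome 17, Serping1 is on the minus strand of chromosome 2 (84765387 to 84775444), and C1ra is on the plus strand of chromosome 6 (124512405 to 124523443). No other gene of the tables overlaps a member. C4b and C1ra have near-identical copies that counting could mix with them. The copy C4a had at most 3 counts in a library, and C1rb, counted in HFD and Chow, had 2 counts in Chow 19 and 0 elsewhere.

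Promoters of 5 of the 8 members were in the RefSeq table for GRCm38.p6, and the 250 bases before the start are shown for 3 of them. The windows of C1qb, C1qc and C7 are shown because each holds a match to 1 of the motifs searched, while those of C3 and C1ra held neither. Capitals in C1qb and C1qc mark GAGGAA, or TTCCTC where it lies on the other strand, the core that the myeloid transcription factor PU.1 recognises. Capitals in C7 mark TTCNNNGAA, a motif of STAT transcription factors that reads alike on both strands.
C1qb: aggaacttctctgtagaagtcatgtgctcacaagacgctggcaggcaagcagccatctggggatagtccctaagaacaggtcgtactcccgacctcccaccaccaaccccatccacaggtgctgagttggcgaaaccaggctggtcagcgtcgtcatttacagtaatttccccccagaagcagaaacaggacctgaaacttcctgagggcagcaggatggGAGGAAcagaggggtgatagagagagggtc
C1qc: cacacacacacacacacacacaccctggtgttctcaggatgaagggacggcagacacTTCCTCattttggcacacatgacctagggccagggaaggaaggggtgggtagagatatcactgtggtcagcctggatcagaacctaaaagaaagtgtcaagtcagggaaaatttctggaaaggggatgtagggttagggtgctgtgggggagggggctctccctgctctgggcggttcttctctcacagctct
C7: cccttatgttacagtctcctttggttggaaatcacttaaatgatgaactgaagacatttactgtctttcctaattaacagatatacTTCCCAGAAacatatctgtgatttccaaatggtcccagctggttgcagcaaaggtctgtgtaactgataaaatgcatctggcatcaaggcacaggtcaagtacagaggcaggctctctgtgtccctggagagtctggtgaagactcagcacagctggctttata
The C1qb window is chr4:136886201-136886450, with its motif 30 to 25 bases before the start. The C1qc window is chr4:136892915-136893164, with the motif on the other strand 193 to 188 bases before the start. The C7 window is chr15:5063774-5064023, with its motif 164 to 156 bases before the start. Positions count back from the RefSeq start, which for C1qc lies inside the gene as the tables place it. All 3 windows are written on the minus strand. Both strands of 32851 mouse promoter windows of the same length were searched: 23.3% held GAGGAA and 7.0% held TTCNNNGAA, and a match is no sign of binding.

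Per kilobase of exon, C3 and Serping1 were the most abundant members and C1ra the least. In HFD muscle C3 averaged 14.2 ± 5.18 CPM per kb and in Chow muscle 19.1 ± 5.13 CPM per kb. Serping1 averaged 15.5 ± 2.34 CPM per kb in PCN, 14 ± 1.19 in Vehicle, 11.9 ± 3.29 in HFD and 15.2 ± 3.17 in Chow. C1qa followed, at 7.69 ± 0.377 CPM per kb in PCN, 8.49 ± 1.81 in Vehicle, 8.73 ± 5.98 in HFD and 7.56 ± 2.34 in Chow. C1ra stood at 1.74, 1.49, 1.60 and 1.58 CPM per kb in PCN, Vehicle, HFD and Chow.

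The order below C1qa differed between groups. In PCN muscle it ran C4b, C1qb, C1qc, C7 and C1ra, and in Vehicle muscle C1qb, C4b, C1qc, C7 and C1ra. In HFD muscle it ran C1qb, C4b, C1qc, C7 and C1ra, and in Chow muscle C1qb, C7, C1qc, C4b and C1ra. C7 thus stood above C4b and C1qc in Chow only, and this order was not tested. In HFD each gene's libraries overlapped those of the next gene down, and in Chow this held for each step except Serping1 over C1qa. In PCN and Vehicle the libraries of Serping1 also lay above those of C1qa. C1qb lay above C1qc without overlap in PCN and above C4b in Vehicle, and C1qc lay above C7 in PCN. All other neighbours in PCN and Vehicle overlapped.

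**Figure D1:**
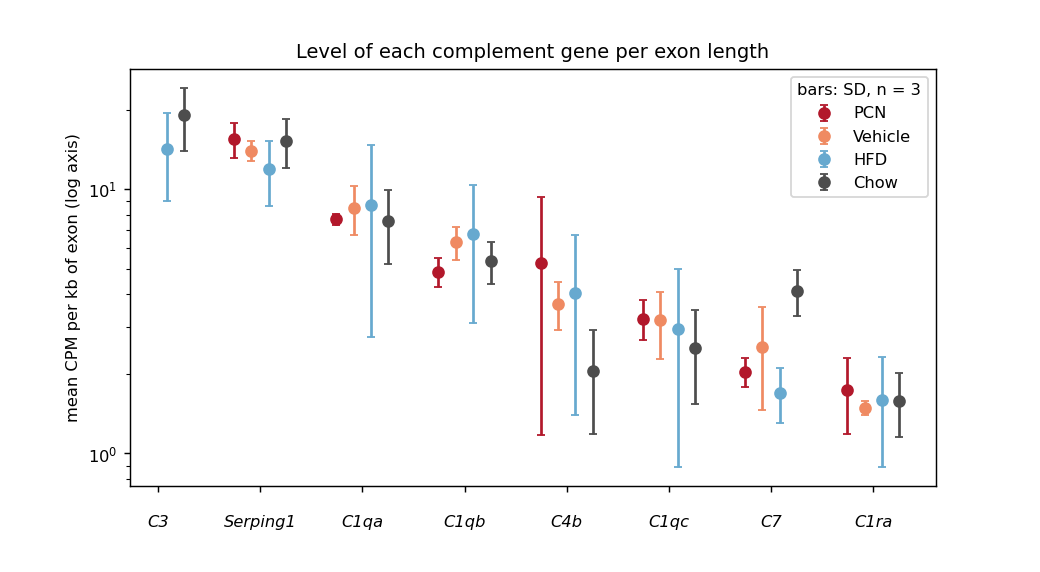
Mean level of each gene in CPM per kilobase of exon on a log axis, by group, with bars for the SD of 3 libraries. C3 was analysed in HFD and Chow only, and C7 in Chow (4.13 CPM per kb) sits above its 3 other groups (1.70 to 2.52 CPM per kb).

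The C1q chains start the classical pathway, and their transcripts varied together from library to library. C1qa was at 8.26, 7.55 and 8.20 CPM in PCN 5, 11 and 27, at 9.88, 9.96 and 6.65 CPM in Vehicle 15, 23 and 55, at 6.13, 4.89 and 16.2 CPM in HFD 4, 30 and 38, and at 9.83, 8.64 and 5.14 CPM in Chow 8, 17 and 19. HFD 38 was 1.63 times as high as the next library, and all groups overlapped. C1qb was at 5.78, 4.53 and 5.60 CPM in PCN, 7.16, 7.63 and 5.73 CPM in Vehicle, 5.48, 4.68 and 11.8 CPM in HFD, and 6.98, 5.44 and 4.97 CPM in Chow, in the same library order. Here too HFD 38 was the highest library, and PCN 11 was the lowest. C1qc was at 5.27, 6.10 and 7.41 CPM in PCN, 7.74, 6.49 and 4.27 CPM in Vehicle, 3.47, 3.35 and 10.3 CPM in HFD, and 6.82, 4.61 and 3.11 CPM in Chow. In bulk tissue, fewer cells of a type and less RNA per cell cannot be told apart.

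No comparison separated the C1q chains. PCN minus Vehicle was -0.14 ± 0.21 for C1qa, -0.36 ± 0.21 for C1qb and 0.029 ± 0.26 for C1qc (log2 fold change ± SE; edgeR adjusted p = 0.998 for each). Vehicle minus HFD was -0.057 ± 0.38, -0.11 ± 0.29 and 0.091 ± 0.42 for the same genes (edgeR adjusted p = 0.973, 0.909 and 0.956). The HFD minus Chow differences, given as a description since this contrast was used in choosing the genes, were 0.26 ± 0.49, 0.38 ± 0.35 and 0.30 ± 0.49. Without HFD 38 they were -0.50, -0.17 and -0.48, and Vehicle minus HFD was then 0.68, 0.43 and 0.85. PCN minus HFD was -0.20 ± 0.39, -0.48 ± 0.29 and 0.12 ± 0.42 (edgeR adjusted p = 0.809, 0.362 and 0.900), and 0.54, 0.065 and 0.88 without HFD 38.

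The C1q chains were set beside macrophage markers. The 3 chains summed to 19.3, 18.2 and 21.2 CPM in PCN 5, 11 and 27, 24.8, 24.1 and 16.7 CPM in Vehicle 15, 23 and 55, 15.1, 12.9 and 38.4 CPM in HFD 4, 30 and 38, and 23.6, 18.7 and 13.2 CPM in Chow 8, 17 and 19. The 14 macrophage markers summed to 71.5, 77.8 and 83.3 CPM in PCN, 91.9, 104 and 53.3 CPM in Vehicle, 83.2, 57.4 and 142 CPM in HFD, and 93.5, 78.4 and 52.3 CPM in Chow, in the same library order. Among these markers Cx3cr1, a chemokine receptor of monocytes and macrophages, was at most 0.192 CPM in any library (Chow 17) and at 0 in Vehicle. HFD 38 was highest in both sums, and also in the sums of fibroblast (1740 CPM) and adipocyte markers (528 CPM). HFD 30 and Chow 19 were among the 3 lowest in both the C1q and the macrophage sum. HFD 4 went the other way, with the lowest C1q sum but for HFD 30 and Chow 19, and a macrophage sum close to that of PCN 27. The part of macrophage content in the C1q values was not tested. In the summed level of the C1q transcripts per kilobase of exon, C1qa took the largest share in each library, 43.8% to 52.9% (median 47.6%). C1qb took 28.5% to 41.1% (median 33.7%) and C1qc 14.1% to 22.7% (median 16.8%). These shares depend on the exon lengths used, 1040, 1088 and 1931 bases for C1qa, C1qb and C1qc. In plain CPM, C1qc averaged above C1qb in PCN (6.26 against 5.30 CPM) and below it in the other groups.

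**Figure D2:**
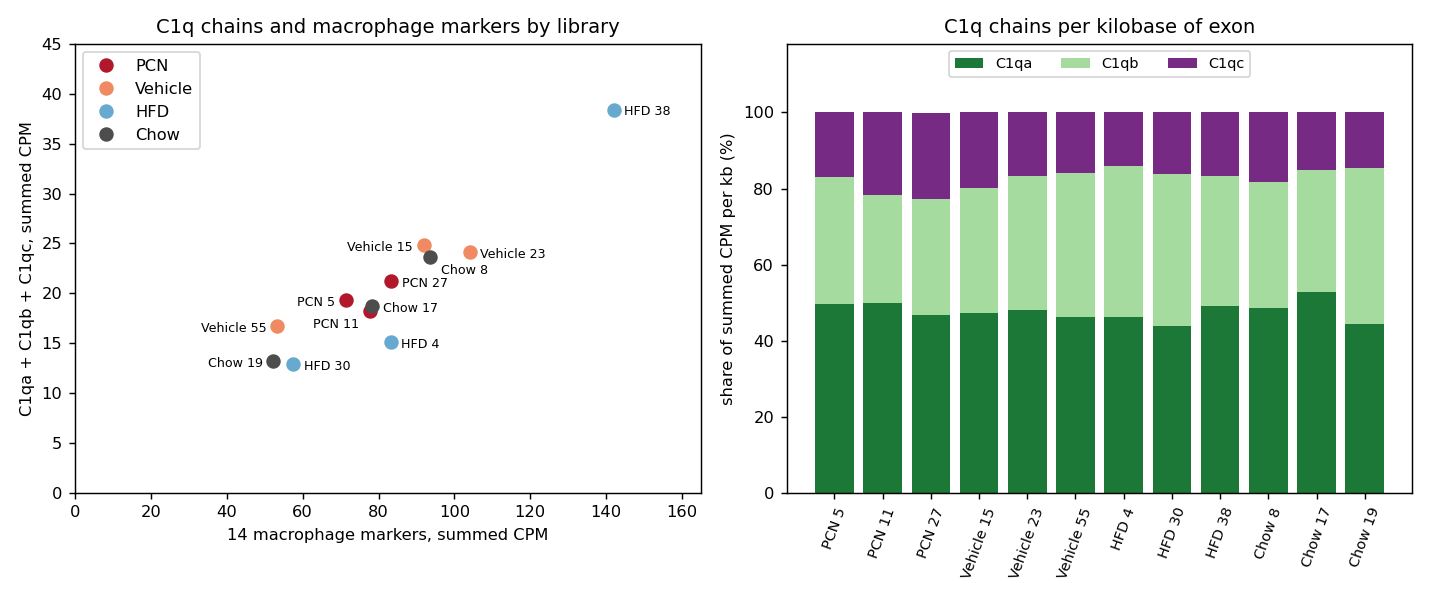
Left, summed CPM of C1qa, C1qb and C1qc against summed CPM of 14 macrophage markers, with 1 point per library. Right, share of each chain in the summed CPM per kilobase in each library; HFD 38 stands alone at the upper right (142 and 38.4 CPM), while its chain shares lie within the range of the other libraries.

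C1ra, the protease that C1q activates, differed little. It was at 7.11, 4.34 and 4.12 CPM in PCN 5, 11 and 27, at 4.33, 4.76 and 4.27 CPM in Vehicle 15, 23 and 55, at 5.96, 2.30 and 6.00 CPM in HFD 4, 30 and 38, and at 5.20, 5.69 and 3.28 CPM in Chow 8, 17 and 19. PCN 5 was the highest library and HFD 30 the lowest, and all groups overlapped. PCN minus Vehicle was 0.22 ± 0.26 on the log2 scale (edgeR adjusted p = 0.998), and -0.075 without PCN 5. Vehicle minus HFD was -0.096 ± 0.33 (edgeR adjusted p = 0.934) and PCN minus HFD 0.12 ± 0.33 (edgeR adjusted p = 0.871), and they turned to 0.12 without HFD 38 and to -0.21 without HFD 30. HFD minus Chow was 0.038 ± 0.36, with a sign that turned when HFD 38 (-0.19), HFD 4 (-0.13) or Chow 19 (-0.18) was left out.

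C4b encodes C4, which is cleaved by the C1 complex to help form the C3-cleaving enzyme. It was at 56.5, 15.1 and 17.9 CPM in PCN 5, 11 and 27, at 16.3, 24.8 and 21.9 CPM in Vehicle 15, 23 and 55, at 14.3, 14.4 and 40.4 CPM in HFD 4, 30 and 38, and at 14.9, 14.3 and 5.99 CPM in Chow 8, 17 and 19. PCN 5 and HFD 38 were far above the other libraries, and Chow 19 far below. The highest library was 9.44 times the lowest, the widest span of any member. The group means were 29.8 ± 23.2 CPM in PCN, 21.0 ± 4.34 CPM in Vehicle, 23.0 ± 15.0 CPM in HFD and 11.7 ± 4.98 CPM in Chow (SD, n = 3 each).

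PCN minus Vehicle for C4b was 0.51 ± 0.52 (edgeR adjusted p = 0.998) and -0.35 without PCN 5, so its direction rested on 1 library. Vehicle minus HFD was -0.14 ± 0.59 (edgeR adjusted p = 0.951), 0.55 without HFD 38 and 0.0058 without Vehicle 15. PCN minus HFD was 0.36 ± 0.59 (edgeR adjusted p = 0.770), -0.50 without PCN 5 and 1.05 without HFD 38. As a description, HFD minus Chow was 1.02 ± 0.56, and 0.31 without HFD 38. Vehicle minus Chow was 0.85 ± 0.60 and PCN minus Chow 1.35 ± 0.61, all 3 against the same Chow libraries. They were 0.53 for Vehicle without Chow 19 and 0.51 for PCN without PCN 5. Each PCN and Vehicle library was above each Chow library, by little in PCN 11 (15.1 CPM, against 14.9 CPM in Chow 8), while HFD overlapped Chow.

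C3, the protein on which all activation routes converge, had the highest CPM of the members. It was at 88.8, 42.5 and 88.5 CPM in HFD 4, 30 and 38, and at 125, 97.1 and 72.7 CPM in Chow 8, 17 and 19. HFD 30 was the lowest and Chow 8 the highest, and the groups overlapped through Chow 19. HFD minus Chow was -0.41 ± 0.31, and -0.13 without HFD 30.

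C7 joins the terminal complex. It was at 5.21, 6.23 and 4.91 CPM in PCN 5, 11 and 27, at 9.82, 6.22 and 4.22 CPM in Vehicle 15, 23 and 55, at 5.00, 3.35 and 5.34 CPM in HFD 4, 30 and 38, and at 11.7, 12.8 and 8.64 CPM in Chow 8, 17 and 19. Each PCN and HFD library was below each Chow library, and among Vehicle libraries only Vehicle 15 reached into the Chow range. HFD minus Chow was -1.25 ± 0.23 on the log2 scale, PCN minus Chow -1.02 ± 0.28 and Vehicle minus Chow -0.71 ± 0.27, and the 3 comparisons share the Chow libraries. They are a description, since the gap between HFD and Chow put C7 on the list.

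The HFD minus Chow difference of C7 ranged from -1.41 without Chow 19 to -1.07 without HFD 30. It was -1.35 ± 0.29 without both Chow 17 and Chow 19, the libraries high in slow-fibre markers, which leaves Chow 8 as the only Chow library, taken to vary as the HFD libraries do. In the authors' deposited table for HFD and Chow C7 had a log2 fold change of -0.91, an SE of 0.2 and an adjusted p of 0.007864, and 27 genes were below 0.05. DESeq2 on the same libraries gave -1.26 for C7 here. For C4b the deposited value was 0.32, against 0.99 with DESeq2 here. The deposited values are thus not on the same footing as those given here, and the reason was not tested. The 12 fibroblast markers summed to 651 to 1137 CPM in PCN, 942 to 1315 CPM in Vehicle, 931 to 1740 CPM in HFD and 1080 to 1707 CPM in Chow. The library lowest in that sum was also lowest in C7 within Vehicle (Vehicle 55), HFD (HFD 30) and Chow (Chow 19), but not within PCN. The part of fibroblast and of slow-fibre content in the C7 values was not tested.

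Among the groups on the high-fat diet, the C7 libraries overlapped. Of the comparisons between these groups, PCN against Vehicle is the one that uses none of the libraries by which C7 was chosen. PCN minus Vehicle was -0.31 ± 0.30 (edgeR adjusted p = 0.998), and 0.058 without Vehicle 15, the highest Vehicle library. The HFD libraries were part of that choice, so the differences from them are a description: Vehicle minus HFD was 0.56 ± 0.28, and 0.19 without Vehicle 15, and PCN minus HFD was 0.25 ± 0.29, and 0.072 without HFD 30.

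Serping1, the C1 inhibitor, was the steadiest member. It was at 42.2, 33.5 and 32.1 CPM in PCN 5, 11 and 27, at 31.4, 35.7 and 30.6 CPM in Vehicle 15, 23 and 55, at 27.6, 20 and 35.2 CPM in HFD 4, 30 and 38, and at 40.0, 39.0 and 26.8 CPM in Chow 8, 17 and 19. The highest library was 2.11 times the lowest, and all groups overlapped. PCN minus Vehicle was 0.15 ± 0.17 (edgeR adjusted p = 0.998), Vehicle minus HFD 0.24 ± 0.21 (edgeR adjusted p = 0.677) and PCN minus HFD 0.38 ± 0.21 (edgeR adjusted p = 0.298). They were 0.013 without PCN 5, 0.049 without HFD 30 and 0.19 without HFD 30. HFD minus Chow was -0.33 ± 0.23, and -0.14 without HFD 30.

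**Figure D3:**
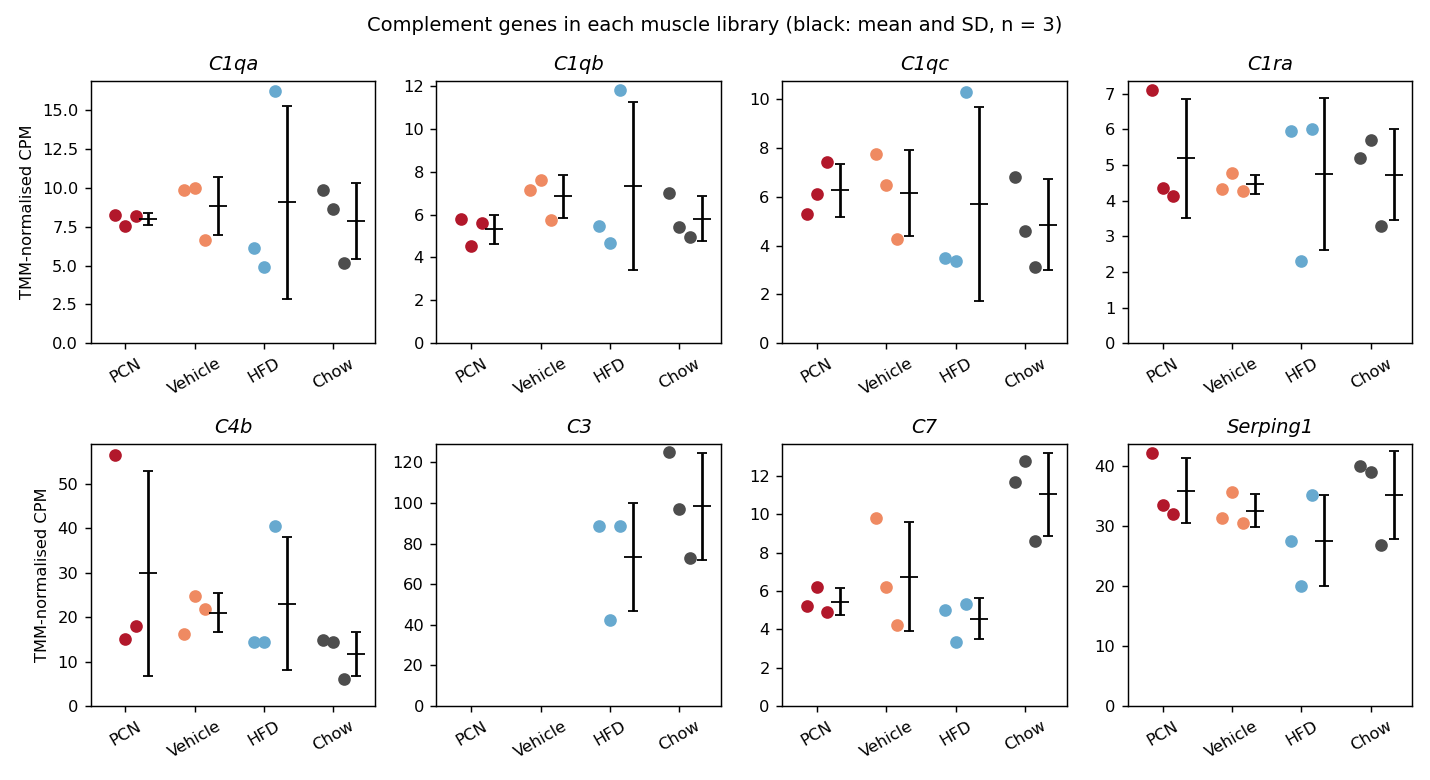
TMM-normalised CPM of each gene in each library, in panels ordered by role, with the mean and SD of 3 libraries in black. The C7 libraries of Chow (8.64 to 12.8 CPM) lie above all HFD libraries (3.35 to 5.34 CPM), HFD 38 leads the C1q panels, and PCN 5 leads C4b (56.5 CPM).

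The members were also counted over the 6 comparisons. In HFD against Chow, edgeR called 0 of 8 members and 0 of 12686 genes (0%). At an unadjusted p under 0.05 it took 976 genes (7.69%), and DESeq2 called 44 of the 12882 genes to which it gave an adjusted p (0.342%). C7 was the only member in either set. C7 was the only member without overlap between HFD and Chow, in a direction taken by 7.08% of all genes tested, beside 5.75% higher without overlap, and nothing is read from this count since the contrast chose the genes. Of the members, 5 were fitted higher and 3 lower in HFD. Their median difference on the log2 scale was 0.15, beside 0.00052 over all genes.

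In PCN against Vehicle, edgeR called 0 of 7 members and 0 of 12833 genes (0%). At an unadjusted p under 0.05 there were 362 genes (2.82%) and no member, and DESeq2 called 0 of 24453 genes. No member was without overlap, where 4.22% of all genes were higher and 4.18% lower without overlap. The members' median was 0.029, with 4 higher and 3 lower, beside 0.014 over all genes.

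In Vehicle against HFD, edgeR called 0 of 7 members and 0 of 13375 genes (0%), with 1708 genes (12.8%) and no member at an unadjusted p under 0.05. DESeq2 called 262 of the 4507 genes to which it gave an adjusted p (5.81%). Of the members only C4b and Serping1 had one there, and neither was called; the other 5 members had none. No member was without overlap, beside 11.8% of genes higher and 11.0% lower. The members' median was -0.057, beside -0.00049 over all genes. In PCN against HFD, edgeR called 0 of 7 members and 554 genes (4.14%), with 2976 genes (22.3%) and no member at an unadjusted p under 0.05. DESeq2 called 1103 of 11749 genes with an adjusted p (9.39%) and none of the 7 members. No member was without overlap, beside 13.5% of genes higher and 12.9% lower.

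Against Chow, edgeR called 0 of 7 members in Vehicle and 2 of 13375 genes (0.0150%), with 899 genes (6.72%) at an unadjusted p under 0.05, among them 1 member, C7. DESeq2 called 53 of 12175 genes with an adjusted p (0.435%) and no member. C4b was higher in Vehicle without overlap, as were 5.87% of genes, while 7.17% were lower. In PCN against Chow, edgeR called 0 of 7 members and 17 genes (0.127%), with 1933 genes (14.5%) at an unadjusted p under 0.05, among them 1 member, C7. C4b was higher and C7 lower in PCN without overlap, directions taken by 8.71% and 8.26% of genes. DESeq2 called C7 in that comparison, among 249 of 11749 genes with an adjusted p (2.12%). The comparisons with HFD or Chow share the libraries that chose C7, so nothing is read from its place in their counts.

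**Figure D4:**
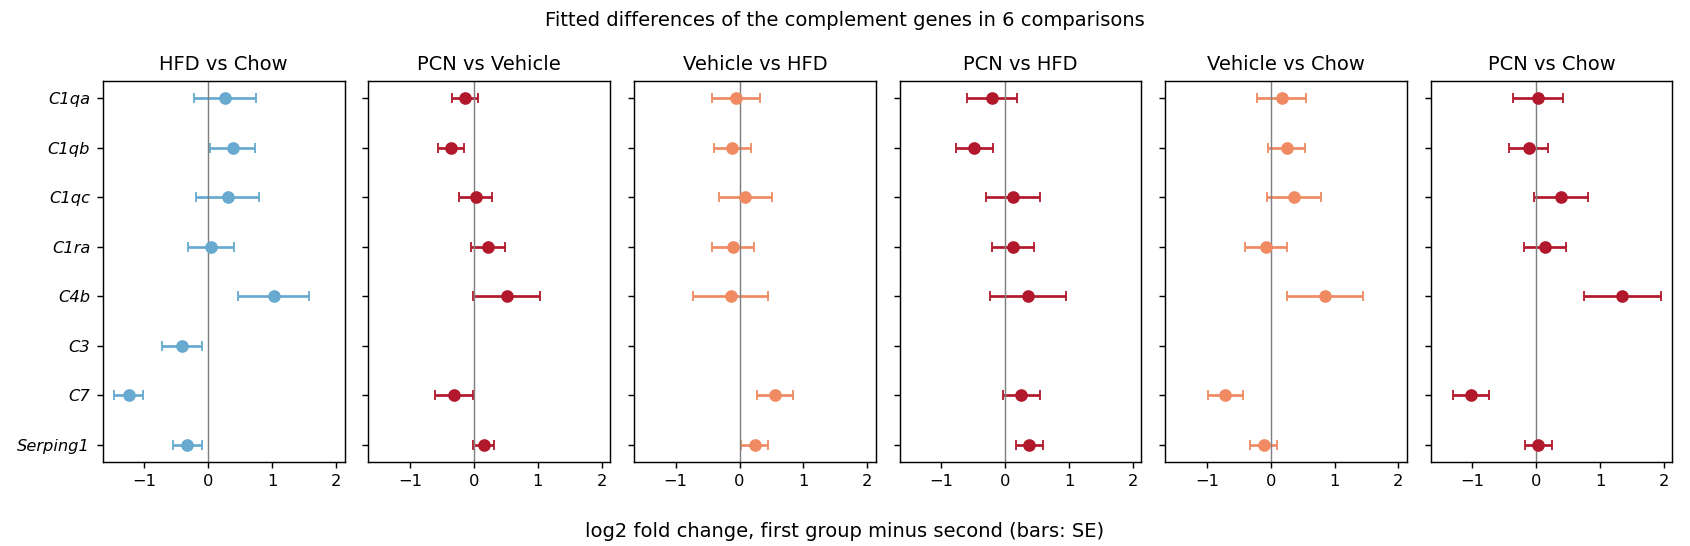
Fitted log2 fold change of each gene in 6 comparisons, first-named group minus second, with bars for the SE. C7 lies left of 0 in the 3 comparisons with Chow (-1.25, -0.71 and -1.02), which share the Chow libraries, and C4b lies right of 0 in them (1.02, 0.85 and 1.35).

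The rest of the complement system was read from a list of 51 other genes. In HFD against Chow 18 of them passed the expression filter, with 6 fitted higher and 12 lower, 0 called by edgeR, and a median of -0.096, beside 0.00052 over all genes. Clu, which encodes clusterin, an inhibitor of the terminal complex, was the only 1 of these 18 with an unadjusted p under 0.05, beside 7.69% of all genes. It was at 35.3 ± 2.02 CPM in HFD and 43.6 ± 1.59 CPM in Chow. The log2 fold change was -0.29 ± 0.12 (edgeR adjusted p = 0.635), and DESeq2 did not call Clu. Its libraries spanned 28.1 to 65.1 CPM in PCN and 31.8 to 87.4 CPM in Vehicle. In a fit of all 12 libraries HFD minus Chow was -0.31 ± 0.40 for Clu (edgeR adjusted p = 0.941). Cfd, the alternative pathway protease made by adipocytes, spanned 3.14 to 41.1 CPM within HFD and 3.45 to 62.9 CPM within Chow. HFD minus Chow was -1.02 ± 1.35 for Cfd (edgeR adjusted p = 0.876). The 8 adipocyte markers summed to 124 to 528 CPM in HFD and 88.0 to 287 CPM in Chow. All 8 were fitted higher in HFD, the opposite direction to Cfd, and edgeR called 0 of them. From library to library, Cfd was at 3.14, 11.0 and 41.1 CPM in HFD 4, 30 and 38, where the markers summed to 124, 195 and 528 CPM. Libraries also ranked alike in Cfd and in this sum within PCN and within Vehicle. Within Chow, Chow 19 was lowest in both, but Chow 17 led Cfd and Chow 8 led the sum. The part of adipocyte content in Cfd was not tested. Of the terminal components other than C7, none passed the filter in HFD and Chow. By role and without the members, 2 of 3 tested genes of the initiation steps, 0 of 2 of the alternative pathway, 0 of 2 soluble regulators, 2 of 6 membrane regulators and 2 of 5 receptors were fitted higher in HFD.

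In PCN against Vehicle 17 of the 51 passed the filter, with 8 fitted higher and 9 lower, 0 called by edgeR and 0 with an unadjusted p under 0.05, and a median of -0.0037, beside 0.014 over all genes. C8g, a chain of the terminal component C8, was at 5.08 CPM in PCN 5 and at 0.881 and 0.370 CPM in PCN 11 and 27, and at 0.635 to 0.865 CPM in Vehicle. Like C4b, C1ra and Serping1, C8g was highest in PCN 5. PCN minus Vehicle was 1.46 ± 0.90 for C8g (edgeR adjusted p = 0.998), and -0.30 without that library.

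In PCN against HFD 18 of the 51 were tested, with 7 fitted higher and 11 lower. Of these 4 had an unadjusted p under 0.05, beside 22.3% of all genes, and 1 was called by edgeR, beside 4.14% of all genes, with a median log2 difference over the 18 of -0.095, beside 0.0059 over all genes. A single call among 18 genes is near that background. C1qbp encodes a mitochondrial protein that also binds C1q heads. It was at 43.0, 32.9 and 38.3 CPM in PCN 5, 11 and 27, at 30.0, 33.3 and 33.5 CPM in Vehicle 15, 23 and 55, at 21.0, 26.3 and 24.4 CPM in HFD 4, 30 and 38, and at 26.6, 30.5 and 26.3 CPM in Chow 8, 17 and 19. PCN and Vehicle each lay above HFD without overlap, as did 13.5% of all genes for PCN and 11.8% for Vehicle. The injected groups came from a different deposited table than HFD and Chow, so injection and table cannot be told apart. HFD 30 and Chow 19 were at the same printed value. With the expression filter and no library left out, C1qbp was the 1 complement gene that edgeR called in any comparison. It was higher in PCN than in HFD (log2 fold change 0.67 ± 0.14, edgeR adjusted p = 0.0256). The call was lost in a fit of those 6 libraries alone (0.68, edgeR adjusted p = 0.0585). It was also lost without PCN 5 (0.56), PCN 27 (0.65), HFD 4 (0.58), HFD 30 (0.74) or HFD 38 (0.68), with edgeR adjusted p from 0.0614 to 0.103. DESeq2 called C1qbp as well (0.68, adjusted p = 0.00124), among 9.39% of genes with an adjusted p.

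Cd93, an endothelial and myeloid receptor first described as a C1q receptor, averaged 19.9 ± 3.28 CPM in PCN, 19.5 ± 3.48 in Vehicle, 32.2 ± 5.12 in HFD and 34.0 ± 6.91 in Chow. Its libraries in the injected groups, 17.2 to 23.7 CPM, were all below those of HFD, 27.6 to 37.7 CPM, and of Chow, 27.1 to 40.9 CPM. For Cd93 too, injection and deposited table cannot be told apart. Of all genes, 12.9% were lower without overlap in PCN than in HFD, and 11.0% in Vehicle than in HFD. Against Chow these shares were 8.26% and 7.17%. DESeq2 called 9.39% of genes with an adjusted p in PCN against HFD and 5.81% in Vehicle against HFD. For Cd93, PCN minus HFD was -0.69 ± 0.19 (edgeR adjusted p = 0.0542) and Vehicle minus HFD -0.72 ± 0.19 (edgeR adjusted p = 0.218). DESeq2 called both (-0.69, adjusted p = 0.0215, and -0.72, adjusted p = 0.0290), and edgeR called PCN minus HFD without a filter (adjusted p = 0.0430) and without PCN 5 (-0.85, adjusted p = 0.0469). PCN minus Vehicle was 0.030 ± 0.19 (edgeR adjusted p = 0.998). The 7 endothelial markers summed to 85.8 to 141 CPM in PCN, 84.2 to 136 in Vehicle, 90.7 to 133 in HFD and 116 to 146 in Chow, ranges that overlap, and their part in the Cd93 values was not tested.

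Cr1l, the rodent membrane regulator also known as Crry, was at 23.8, 27.1 and 23.8 CPM in PCN 5, 11 and 27, at 26.3, 24.7 and 28.6 CPM in Vehicle 15, 23 and 55, at 36.7, 32.2 and 30.7 CPM in HFD 4, 30 and 38, and at 26.6, 27.9 and 32.9 CPM in Chow 8, 17 and 19. Both injected groups lay below HFD without overlap, as did 12.9% of all genes for PCN and 11.0% for Vehicle, and both overlapped Chow. Again injection coincides with the deposited table. PCN minus HFD was -0.42 ± 0.14 (edgeR adjusted p = 0.0957) and Vehicle minus HFD -0.32 ± 0.14 (edgeR adjusted p = 0.347), and neither was called.

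**Figure D5:**
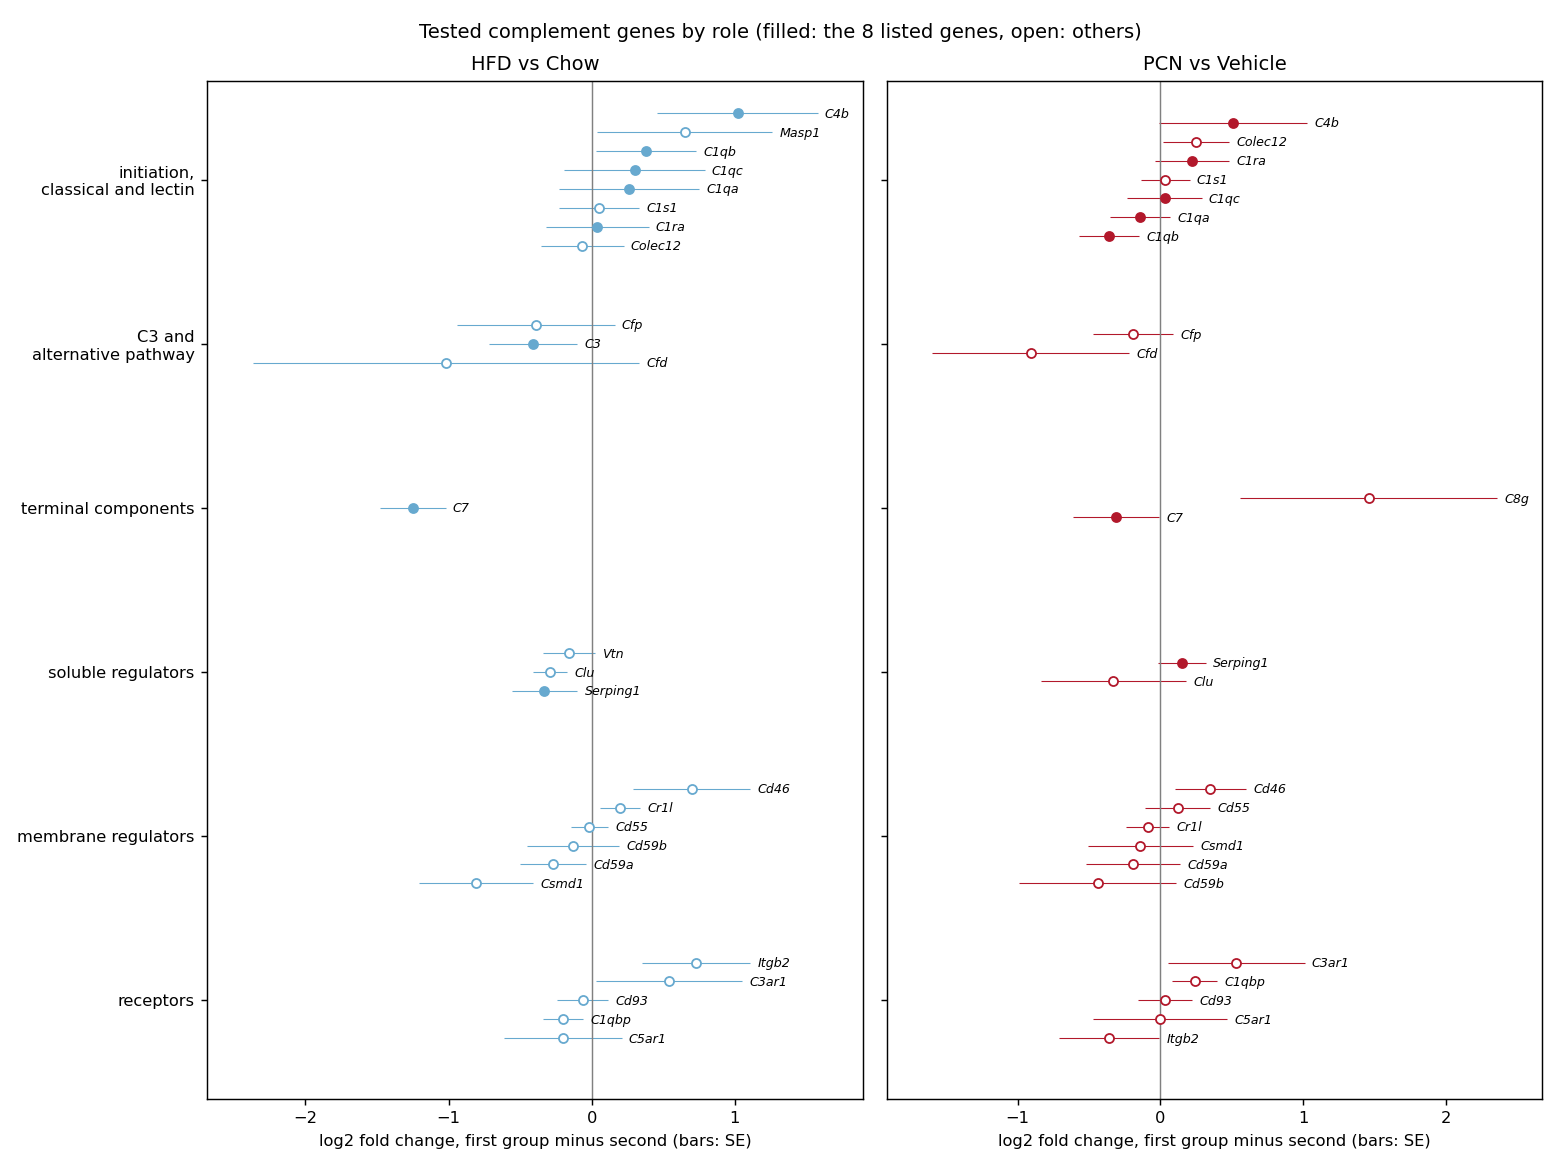
Fitted log2 fold changes of the tested complement genes grouped by role, for HFD against Chow (left) and PCN against Vehicle (right), with bars for the SE. Filled points are the members and open points the other listed genes; C7 is at -1.25 on the left, and C8g (1.46) is the highest point on the right.

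Genes with a pattern most like each member were sought among 10833 genes over the 12 libraries, by Pearson r of log2(CPM + 0.5), and for C3 among 10889 genes over the 6 HFD and Chow libraries. These values describe libraries that share depth and tissue make-up. For C1qa they were Lyz2, the myeloid lysozyme (r = 0.93), Csf1r, the receptor that macrophages need for survival (r = 0.89), and Syde2 (r = 0.88). For C1qb they were Arhgap30, a GTPase-activating protein (r = 0.90), Fcgr3, an antibody receptor of myeloid cells (r = 0.89), and Lyz2 (r = 0.86). For C1qc they were Syde2 (r = 0.88), Tyrobp, a signalling adaptor of myeloid receptors (r = 0.88), and Lyz2 (r = 0.87). The chains themselves had r = 0.92 (C1qa and C1qc), 0.89 (C1qa and C1qb) and 0.75 (C1qb and C1qc).

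The other members had different partners. For C1ra the nearest was C1s1, which encodes the protease that C1r activates (r = 0.87), then Lilrb4a (r = 0.83) and Tceal1 (r = 0.83). For C4b they were Lcp1, an actin-bundling protein of leukocytes (r = 0.91), Cd1d1, which presents lipids to T cells (r = 0.91), and Cyp4v3 (r = 0.90). For Serping1 they were Riiad1 (r = 0.94), Eef1a1, a translation elongation factor (r = 0.93), and Gstt1, a glutathione transferase (r = 0.87). For C7 they were Plxdc2, a membrane protein (r = 0.88), Obi1, a ubiquitin ligase (r = 0.84), and Pcsk6, a proprotein convertase (r = 0.84). For C3 over 6 libraries they were Lipt2 (r = 0.99), Bicc1 (r = 0.98) and Egfr (r = 0.97). Between members, C1ra and Serping1 had r = 0.83, and C7 and C4b had r = -0.35.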

How the data were processed

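RNA sequencing of skeletal muscle was analysed from the deposited tables of raw counts per gene, 1 for HFD and Chow (24093 genes) and 1 for PCN and Vehicle (24453 genes), of which 21976 genes were in both. HISAT2, HTSeq and DESeq2, with GRCm38 and mm10 as builds, are listed in the submitters' processing notes. For versions, annotation release and strand setting nothing was stated: not given in the sources used here. The deposited tables also hold the authors' own log2 fold changes, standard errors, p-values and adjusted p-values, written with decimal commas; they are used only where named. The number of per-sample columns left unused was 0.

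HFD against Chow and PCN against Vehicle were each fitted on the 6 libraries of their table. The other 4 comparisons used all 12 libraries joined on shared genes. Each of these 4 sets a group of 1 table against a group of the other, so injection cannot be told apart from the table. All used edgeR 4.0.16 in R 4.3.3 with TMM normalisation, its expression filter (minimum count 10), robust quasi-likelihood F tests, and Benjamini-Hochberg adjustment over all genes tested with a threshold of 0.05. SE was taken as the size of the log2 difference over the root of its F value. CPM uses 1 TMM normalisation over the 12 libraries, and exon lengths are from GENCODE vM21. Alternatives were DESeq2 1.42.0, DESeq2 size factors, no filter or a minimum count of 30, other sets of libraries in the fit, and each library left out in turn. The fits were run on simulated counts to check the size of their estimates. The simulation held no libraries that stand apart, so it does not bear on how such libraries move the results. Within each group replicates differed by more than sampling noise (chi-square per gene 21.7 to 121). Each library was treated as 1 sample, and this check cannot show whether libraries came from separate mice. The members and gene lists were chosen with earlier results of these data known. The text names all 8 members, up to 4 genes with the lowest p-values of each other complement list in a comparison described, and the 3 nearest patterns of each member. A gene of the complement lists is not reported here.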

Additional observations from a re-analysis of the deposited data

How the results depend on the processing

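No paired analysis was possible because each library carries its own number and no number is shared between groups. The members' log2 fold changes, 43 in all, gave 222 values under other settings. Of these 211 kept direction and side of the threshold, and 5 DESeq2 values in Vehicle against HFD (C7, the C1q chains and C1ra) kept direction but had no adjusted p. C7 in HFD against Chow passed the threshold with DESeq2 (-1.26, adjusted p = 0.00380), without an expression filter (-1.26, adjusted p = 3.30e-06) and without Chow 19 (-1.41, adjusted p = 0.0198), and in PCN against Chow with DESeq2 (-1.0, adjusted p = 0.0496). Members called thus came to 1 under DESeq2 in both comparisons and 1 without a filter in HFD against Chow, and to 0 to 1 with a library left out. The gap between HFD and Chow put C7 on the list, and both comparisons use the Chow libraries. These calls of C7 are therefore a description and no independent support. Without Chow 17 and Chow 19 together, chosen after seeing the data, HFD minus Chow turned for C1qa (-0.086), C1qc (-0.23) and C1ra (-0.12). Genes called in HFD against Chow were 44 with DESeq2, 237 without a filter and 0 to 219 with a library left out. In PCN against Vehicle they were 21 without a filter. In Vehicle against HFD they were 262 with DESeq2, 2 without a filter and 193 with 6 libraries. In Vehicle against Chow they were 53, 9 and 5 under the same settings, and 0 to 5 with a library left out. In PCN against HFD they were 1103 with DESeq2 and 6 to 827 with a library left out. In PCN against Chow they were 249 with DESeq2, 48 without a filter, 1 with 6 libraries and 1 to 196 with a library left out. The cause of these shifts was not tested.

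With each library left out in turn, 37 of 258 values of the members turned direction. The log2 fold changes that did so, the other complement genes included, had the following ranges. For HFD minus Chow they ran from -0.50 to 0.55 for C1qa, from -0.17 to 0.62 for C1qb, from -0.48 to 0.61 for C1qc, from -0.19 to 0.37 for C1ra, from -0.47 to 0.11 for Colec12, from -1.13 to 0.10 for Cfp. For PCN minus Vehicle they ran from -0.57 to 0.058 for C7, from -0.35 to 0.82 for C4b, from -0.19 to 0.22 for C1qc, from -0.075 to 0.37 for C1ra, from -0.11 to 0.15 for C1s1, from -0.30 to 1.98 for C8g, from -0.85 to 0.29 for Clu. For Vehicle minus HFD they ran from -0.39 to 0.55 for C4b, from -0.35 to 0.68 for C1qa, from -0.35 to 0.43 for C1qb, from -0.18 to 0.85 for C1qc, from -0.42 to 0.12 for C1ra. For Vehicle minus Chow they ran from -0.063 to 0.36 for C1qa, from -0.29 to 0.088 for C1ra. For PCN minus HFD they ran from -0.50 to 1.05 for C4b, from -0.50 to 0.54 for C1qa, from -0.72 to 0.065 for C1qb, from -0.15 to 0.88 for C1qc, from -0.21 to 0.33 for C1ra. For PCN minus Chow they ran from -0.20 to 0.22 for C1qa, from -0.22 to 0.030 for C1qb, from -0.15 to 0.30 for C1ra, from -0.14 to 0.13 for Serping1.

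Members with 33 counts in a library, 3 libraries per group and libraries that stand apart limit the precision of these differences.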
